A study of Mus musculus with 8 samples.

Results

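The genes of DNA replication and the G1/S transition compared here are 37 mouse genes for origin licensing, the replicative helicase, the polymerases, the sliding clamp, nucleotide supply, cyclin E and the E2F factors. They were listed by function, with earlier results of these data known, so counts for the list describe it and do not test it. Every probe set (the group of short probes that measures 1 transcript on the array) annotated to a single gene of the list was taken. The list had 36 genes with a probe set, on 83 of the 45037 probe sets, and Chaf1a was not analysed here. A filter on dim signals left 34 of these genes among 12949 genes tested, and Cdc6 and Tyms did not pass it. Values of a gene are those of its probe set of highest mean unless another is named.

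Liver RNA had been measured on 8 Affymetrix arrays in male Pemt-/- and Pemt+/+ mice, which all received chow high in fat and sucrose (HFHS). Pemt encodes the liver enzyme that makes phosphatidylcholine from phosphatidylethanolamine. Each genotype had 1 array at each of weeks 1, 2, 3 and 4 of the diet, which gives 4 arrays per genotype and no repeat array of any genotype and week. No source used here gives the age and strain of these mice. The methods give 4 mice of each genotype, with livers taken at weeks 1, 2, 3 and 4. They do not say whether that is 4 in all or 4 per week. Neither the labels nor the methods say whether an array held RNA of 1 mouse or of several. The p-values of the genotype difference therefore measure its spread over the 4 weeks, with what both genotypes shared in a week taken out. They do not measure the spread between mice of the same week. Values are intensities that the authors had scaled to a common level on each array, and levels of different genes were not compared.

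Replication starts at origins that are licensed in G1, when the origin recognition complex, Cdc6 and Cdt1 load the MCM helicase on DNA. At the start of S phase Cdc45 and the GINS complex turn the helicase on, and primase, polymerases, clamp and ligase then copy both strands. Most of these genes are transcribed in late G1 under the control of E2F factors, and the adult liver, whose hepatocytes rarely divide, expresses them at low levels until it regenerates after injury.

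The Pemt probe set, the targeted gene, read between 201 and 255 on the Pemt-/- arrays and between 4989 and 6045 on the Pemt+/+ arrays, in the direction the labels give. Markers of several liver cell types moved with the genotype, where 12.6% of all genes tested were higher and 7.51% lower by limma. Of the 12 macrophage and monocyte markers 11 were higher in Pemt-/-, with a summed intensity of 23408 to 42210 against 10500 to 14490, and of the 10 stellate cell and fibroblast markers 10 were higher, at 37644 to 53361 against 14406 to 18834. Of the 11 hepatocyte markers 9 were lower, at 250790 to 313078 against 346467 to 372745. No marker of these lists had a mean intensity under 16 in both genotypes. The summed lymphocyte markers (8 genes, of which 4 were tested and none passed by limma) and sinusoidal endothelial markers (8 genes, 3 lower) overlapped between the genotypes. Cholangiocyte markers (6 genes, 1 of 5 tested higher) summed to 653 to 1036 against 449 to 669 and erythroid markers (5 genes, 1 of 2 tested lower) to 643 to 1197 against 1677 to 2328. The part of these cell types in the differences described here was not tested, and in whole liver more cells of a type and more RNA per cell cannot be told apart.

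Differences are given as log2(intensity + 16), Pemt-/- minus Pemt+/+, with the SE of the fit over 4 arrays per genotype, and fold changes on that scale understate those of dim genes. Over the 4 weeks, 20 of the 34 replication genes tested were higher in Pemt-/- liver, 1 was lower and 13 did not pass the test (limma, adjusted p under 0.05). Of all genes tested, 12.6% were higher and 7.51% lower. The median difference of the 34 genes was 0.65 on the log2 scale against 0.02 for all genes. The filter was on the mean of all 8 arrays, and 3 of the 34 genes passed it through 1 genotype alone (Gins2 and Pole through Pemt-/-, Orc1 through Pemt+/+), with a mean log2 value under its limit in the other. The means of such a gene lie on either side of the limit by the way it was chosen. Of the other 31 genes 18 were higher and 1 lower, where 12.4% and 7.70% of all genes above the filter in both genotypes were. All 6 genes of the MCM helicase were among those higher, and the gene that fell was Mcm10. The 4 Pemt-/- arrays all lay above the 4 Pemt+/+ arrays for 16 genes and all below for 1, where the shares over all genes were 15.2% and 10.4%. Without week 4, 13 genes were called higher (7.10% of all genes in the same fit), without week 1, 14 (9.26%), and without week 2, in which the Pemt+/+ array stood high for these genes, 19 (13.3%). With the mean of the probe sets of each gene, 11 of the 27 genes left by the filter were higher, against 11.3% of all genes. The calls of Mcm2, Mcm4, Mcm7, Pole, Rpa2, Rrm1, Slbp, E2f1 and E2f8 were lost under at least 1 of 14 alternative settings, and those of the other 12 genes under none that could be run for them. In the plot of the genotype differences, each gene is shown with its value in every week.

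**Figure D1:**
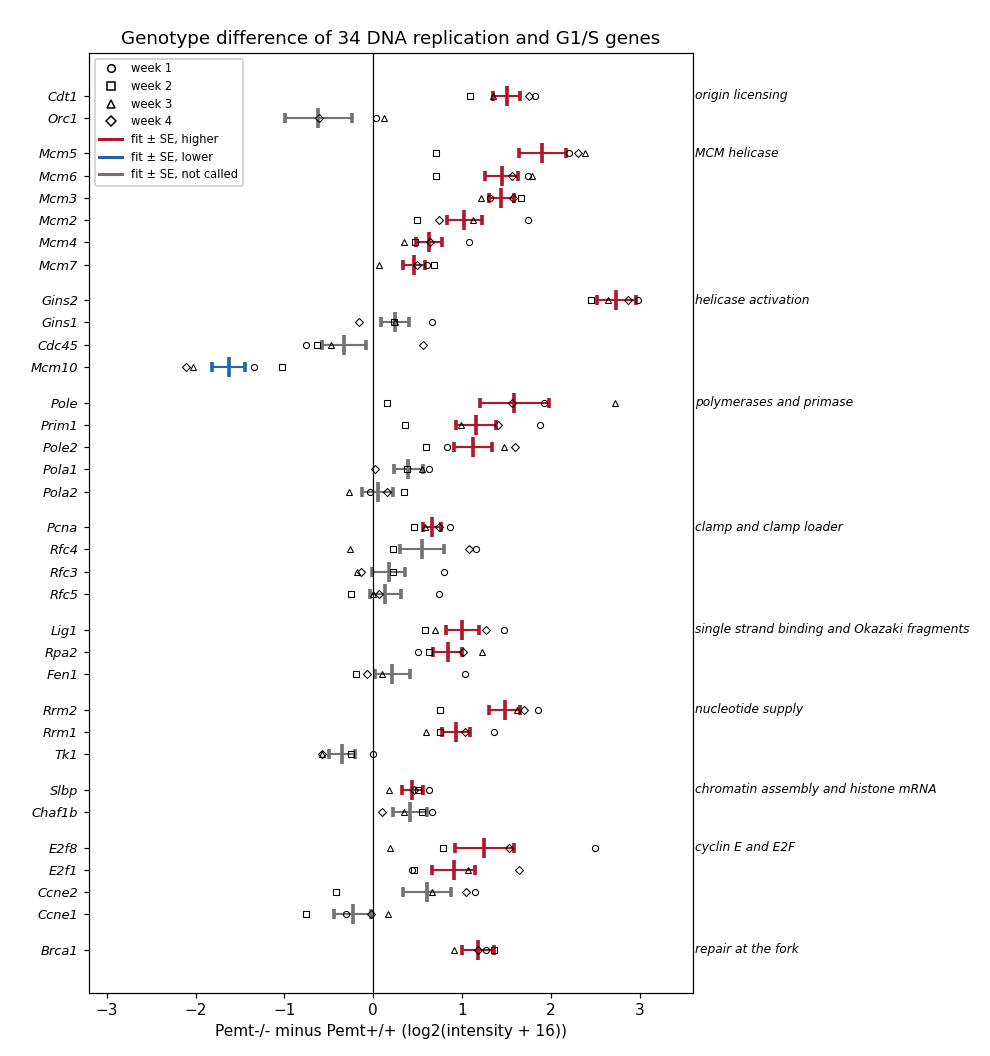
Difference in log2(intensity + 16) between Pemt-/- and Pemt+/+ liver for the 34 genes tested, grouped by role. Vertical ticks with bars are the fitted difference ± SE over 4 weeks, open symbols are the differences of single weeks, and colours mark genes called higher, lower or not called; Gins2 stands at 2.74 and Mcm10 at -1.63.

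Of the licensing factors, Cdt1, which brings the MCM ring to the origin, had intensities of 774, 815, 707 and 1269 in Pemt-/- at weeks 1, 2, 3 and 4 against 208, 376, 269 and 364 in Pemt+/+. All Pemt-/- arrays were above all Pemt+/+ arrays, and the difference was 1.50 ± 0.15 (log2, SE) or 2.83-fold (adjusted p = 0.000999). Both of its probe sets passed the test. Cdc6, the ATPase that loads MCM together with Cdt1, read 98.6, 42.2, 23.6 and 58.8 against 1.19, 5.41, 1.78 and 6.66 and was left out as dim. Its Pemt-/- arrays were above its Pemt+/+ arrays in all 4 weeks, without a test. Orc1, a subunit of the origin recognition complex, read 23.9, 19.9, 155 and 36.6 against 23.2, 128, 141 and 64.6, and its arrays overlapped (log2 difference -0.62 ± 0.38, adjusted p = 0.306). It was bright at week 3 in both genotypes. A second Orc1 probe set, too dim to be tested, lay between 40.6 and 53.8 in Pemt-/- and between 3.97 and 44.1 in Pemt+/+, so that its log2 difference of 0.51 ran the other way.

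The MCM complex is the ring of 6 subunits that unwinds DNA ahead of the fork. The RNA of 6 of 6 subunit genes was higher by the test, where 12.6% of all genes were higher, with log2 differences from 0.46 to 1.90. Mcm5 read 909, 860.1, 598 and 827 in Pemt-/- and 184, 522, 101 and 154 in Pemt+/+. No array of one genotype reached into the range of the other, although Pemt+/+ at week 2 came close to Pemt-/- at week 3. The rise was 3.73-fold (log2 difference 1.90 ± 0.26, adjusted p = 0.00274). Mcm6 read 872, 995, 633 and 1085 against 249.8, 602, 172 and 358, again with the highest Pemt+/+ value at week 2 and the lowest Pemt-/- value at week 3, and rose 2.73-fold (adjusted p = 0.00208). Mcm3 read 473, 647, 387 and 544 against 180.3, 194, 157 and 173. Its Pemt+/+ arrays were close to each other, and the rise was 2.72-fold (log2 difference 1.44 ± 0.14, adjusted p = 0.000899).

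The fitted differences of the other subunits were smaller. Mcm2 ran from 393 to 1046 in Pemt-/- and from 172 to 535 in Pemt+/+ and was 2.03-fold higher (adjusted p = 0.0106). Mcm4 ran from 457 to 775 against 309.9 to 556. Both overlapped between the genotypes: the Pemt+/+ array of week 2 exceeded the Pemt-/- arrays of weeks 3 and 4 for Mcm2, and the Pemt+/+ arrays of weeks 2 and 4 exceeded the Pemt-/- array of week 3 for Mcm4. Mcm4 was 1.55-fold higher (adjusted p = 0.0216), a call that did not hold without week 1 or week 4 (adjusted p = 0.0693 and 0.0800). Mcm2 and Mcm4 did not pass in a fit on genotype alone (adjusted p = 0.0703 and 0.0618). Mcm7 ran from 1572 to 2500.0 against 1322 to 1545, with no overlap. Mcm7, with a difference of 0.46 ± 0.12 (log2, SE; adjusted p = 0.0361), had its call lost without week 1, 2 or 4 (adjusted p = 0.117, 0.0897 and 0.126). Of the 4 tested probe sets of Mcm7, 2 passed, and of the 5 of Mcm3, 3 passed. Both probe sets of Mcm2, Mcm4, Mcm5 and Mcm6 passed.

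Since the MCM genes moved together, the promoters of the list were searched for the letters of E2F-type sites. The motifs were TTTCCCGC, TTTGGCGC, TTTCGCGC and TTTGCCGC on either strand, in the RefSeq window of 250 bases before to 50 after each start (assembly GRCm38.p6), where a stretch may match on both strands. A match was in 2.26% of all 32851 windows and in windows of 11 of the 32 listed genes that had one, and Mcm4, Gins1, Gins2, Pole and Ccne2 had no window. Matches were in 7 of the 17 genes with a window that were higher and in 3 of the 11 that did not pass. The stretches printed here are the matches that lie before the start and outside every annotated gene, those of Mcm5 (chr8:75109316-75109407, plus strand), Mcm6 (chr1:128359706-128359855, minus strand) and Rfc3 (chr5:151651209-151651258, minus strand). They were chosen by place and not by call: Mcm5 and Mcm6 rose in Pemt-/-, and Rfc3 did not pass the test. Matches before the start of Mcm7, which rose, Orc1 and Pola1, which did not pass, and Cdc6, which was not tested, overlapped annotated genes and are not printed. Capitals mark the matched letters.
Mcm5: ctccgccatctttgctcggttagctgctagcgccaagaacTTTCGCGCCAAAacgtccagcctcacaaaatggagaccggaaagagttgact
Mcm6: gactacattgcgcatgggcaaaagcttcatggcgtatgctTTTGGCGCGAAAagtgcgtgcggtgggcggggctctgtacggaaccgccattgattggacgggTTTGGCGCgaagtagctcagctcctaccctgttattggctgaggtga
Rfc3: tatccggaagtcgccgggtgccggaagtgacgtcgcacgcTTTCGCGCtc
In Mcm5, matches on opposite strands began 153 and 149 bases before the start and overlapped. Mcm6 had 3 matches, beginning 110, 106 and 47 bases before the start, of which those at 110 and 106 overlap. In Rfc3 a match began 10 bases before the start. A match is a description of the letters and says nothing of binding in these livers.

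**Figure D2:**
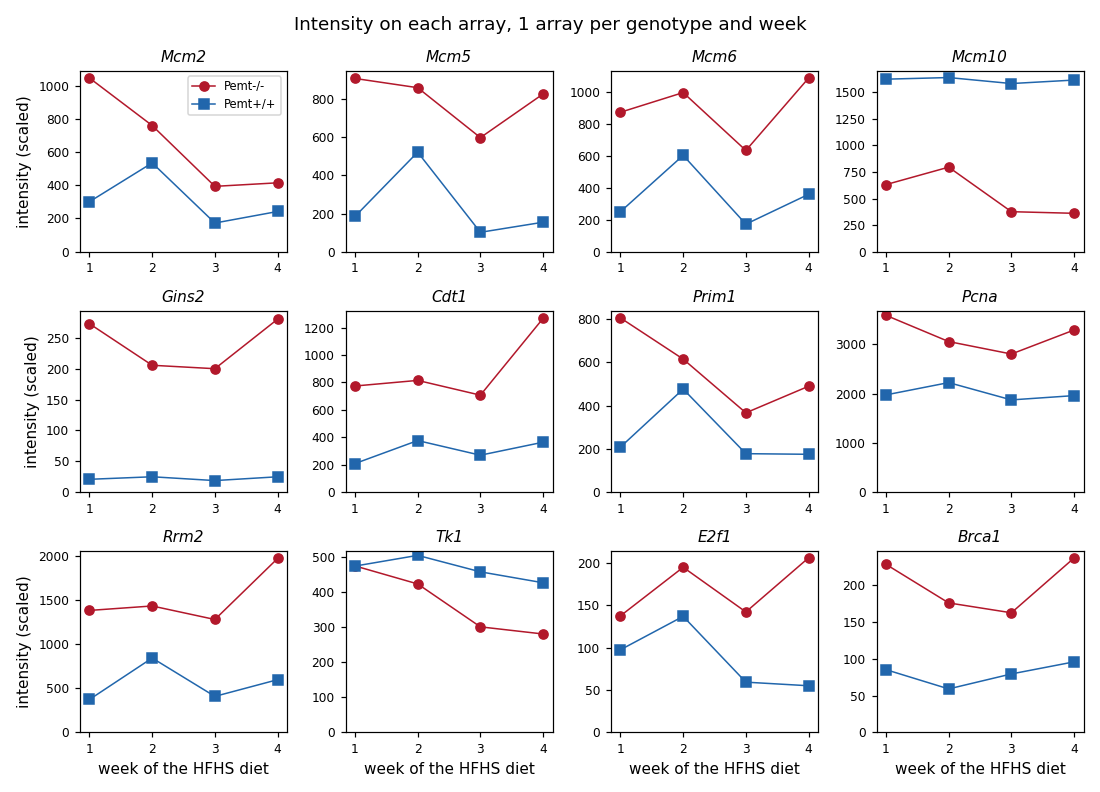
Scaled intensity of 12 of the genes on each of the 8 arrays, by week of the HFHS diet, with 1 array per genotype and week and axes that start at 0. Pemt+/+ peaked at week 2 for Mcm2, Mcm5, Mcm6 and Prim1, and Mcm10 is the panel in which Pemt-/- lies below Pemt+/+ at every week by a wide margin.

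The factors that turn the loaded helicase on did not move together. Gins2, a GINS subunit, read 273, 206, 200.1 and 281 in Pemt-/- and 20.5, 24.7, 18.5 and 24.6 in Pemt+/+. Each Pemt-/- array was far above every Pemt+/+ array, and the gene passed the test (adjusted p = 0.000486; 0.00121 with no filter). All 4 Pemt+/+ values lay under the filter's limit of 45.53, so the size of the rise depends on the value added before the log: the log2 difference of 2.74 ± 0.22 (SE) was 3.38 with 1 added and 1.81 with 64. Another Gins2 probe set, too dim for the test, read 72.7, 98.7, 62.7 and 158 against 3.12, 8.92, 6.09 and 9.33. Gins1, which encodes another subunit of the same complex, read 379, 422, 268 and 275 against 233, 358, 224 and 308 and overlapped between the genotypes (log2 difference 0.24 ± 0.16, adjusted p = 0.350). Cdc45, the partner of MCM and GINS, read 76.3, 111, 121 and 123 against 141, 180.3, 174 and 77.8. It was lower in Pemt-/- in 3 weeks and higher at week 4, and did not pass in either probe set, at -0.33 and 0.19 (adjusted p = 0.419 and 0.619).

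Mcm10, a scaffold of the fork that is no part of the MCM ring, read 631, 796, 376 and 361 in Pemt-/- and 1624, 1639, 1583 and 1616 in Pemt+/+. The 4 Pemt+/+ arrays were nearly level, at 1615 ± 23.8 (SD, n = 4), all Pemt-/- arrays were below them, and the gene was 3.09-fold lower (log2 difference -1.63 ± 0.19, adjusted p = 0.00141). The other 2 Mcm10 probe sets did not pass the filter and read 14.9, 25.5, 20.4 and 64.2 against 66.2, 40.6, 73.1 and 51.6 in one, and 6.39, 20.2, 13.9 and 4.27 against 3.64, 33.1, 17.2 and 3.74 in the other. The fall of Mcm10 therefore rests on 1 probe set, and whether that probe set measures Mcm10 alone was not tested.

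Among the polymerases, 3 of 5 genes were higher, where 12.6% of all genes were. Prim1, the catalytic subunit of primase, read 806, 615, 367 and 489.7 against 208, 477, 177 and 175, and Pemt+/+ at week 2 exceeded Pemt-/- at week 3. The gene was 2.23-fold higher (adjusted p = 0.0107), and both probe sets passed. Pole2, the second subunit of the leading strand polymerase, read 319.6, 232, 186 and 291 against 173, 148, 56.8 and 85.7, without overlap, a rise of 2.18-fold (adjusted p = 0.00936). Pole, its catalytic subunit, read 86.3, 113, 142 and 199 against 11.002, 99.7, 7.95 and 57.0. Pemt+/+ at week 2 lay within the Pemt-/- range, and the rise of 1.59 ± 0.39 (log2, SE; adjusted p = 0.0256) did not pass without week 1, 3 or 4 (adjusted p from 0.0815 to 0.100). Its mean Pemt+/+ level lay under the filter's limit, and it did not pass with no filter (adjusted p = 0.0508). The subunits of polymerase alpha, which extends the primers, did not pass. Pola1 read 280.5, 268, 206 and 173 against 175, 202, 135 and 171 (log2 difference 0.40 ± 0.17, adjusted p = 0.147), higher in Pemt-/- in all 4 weeks but with ranges that overlapped. Pola2 read 159, 150.2, 185 and 194 against 164, 114, 227 and 173, on either side of each other from week to week (log2 difference 0.05 ± 0.17, adjusted p = 0.882).

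Pcna, the sliding clamp that tethers the polymerases, read 3591, 3057, 2804 and 3292 against 1973, 2223, 1871 and 1959. The ranges were apart, and the rise was 1.58-fold (log2 difference 0.66 ± 0.10, adjusted p = 0.00424). The loader subunits on the list, Rfc3, Rfc4 and Rfc5, did not pass by the probe set of highest mean. Rfc4 read 320.0, 224, 168 and 301 against 135, 190.2, 204 and 134 and was above Pemt+/+ in 3 weeks and below at week 3 (log2 difference 0.55 ± 0.25, adjusted p = 0.173). A second Rfc4 probe set did pass, at 0.74 (adjusted p = 0.0309). Rfc5 read 648, 432, 431 and 495 against 380.3, 517, 433 and 474. Rfc3 read 343, 293, 229 and 275 against 192, 249, 261 and 305. Both were furthest above Pemt+/+ at week 1, with differences over all weeks of 0.14 ± 0.17 (adjusted p = 0.634) and 0.17 ± 0.19 (adjusted p = 0.579).

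Lig1, the ligase that joins Okazaki fragments, read 409.8, 346, 313 and 400.4 against 138, 226, 188 and 156, with no overlap, a rise of 2.00-fold (adjusted p = 0.00884). Rpa2, a subunit of the single strand binding protein, read 357, 431, 342 and 521 against 248, 274, 137 and 249.9, also with no overlap. Its rise of 1.79-fold (adjusted p = 0.0104) did not pass without week 3 or week 4 (adjusted p = 0.0555 and 0.0525), and its other probe set tested did not pass (0.18, adjusted p = 0.587). Fen1, the nuclease that trims the fragments, read 902, 1086, 1124 and 1049.6 against 432, 1249.9, 1048 and 1107. Pemt+/+ was low at week 1 and above Pemt-/- at weeks 2 and 4 (log2 difference 0.21 ± 0.19, adjusted p = 0.494). The dimmer Fen1 probe set read 316, 294, 193 and 367 against 155, 228, 111 and 136 and passed, at 0.84 ± 0.19 (adjusted p = 0.0185).

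The genes of both tested subunits of ribonucleotide reductase, which makes deoxyribonucleotides, were higher. Rrm2, the subunit whose level is set by the cell cycle, read 1386, 1437, 1283 and 1977 against 373, 845, 408 and 598 and rose 2.79-fold (adjusted p = 0.00162), with 3 of 3 probe sets past the threshold. Rrm1 read 625, 651, 429 and 529 against 235, 379.9, 279 and 249.9 and rose 1.91-fold (adjusted p = 0.00578). Neither gene overlapped between the genotypes by these probe sets, but a second Rrm1 probe set did overlap and did not pass (0.69, adjusted p = 0.0630). Tk1, the thymidine kinase of S phase, read 474, 422, 300.3 and 279.9 against 473, 504, 457 and 426. It was level at week 1 and below Pemt+/+ from week 2 on, and the difference of -0.35 ± 0.15 (log2, SE) did not pass (adjusted p = 0.141). Tyms, the thymidylate synthase, had 4 probe sets, all too dim to be tested, the brightest at 47.2, 25.0, 27.5 and 22.6 against 28.4, 31.6, 22.5 and 16.7.

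Slbp, which binds the stem-loop of histone mRNA, read 1336, 1214, 951 and 1148 against 859.7, 854, 841 and 829, with level Pemt+/+ arrays and no overlap. Its rise of 1.36-fold (adjusted p = 0.0332) did not pass in any fit of 3 weeks (adjusted p from 0.0592 to 0.124), and a second probe set, at 0.70, did not pass (adjusted p = 0.345). Chaf1b, a subunit of the factor that places histones behind the fork, read 132, 154, 129 and 114 against 77.9, 99.98, 98.4 and 105. All its Pemt-/- arrays were above all Pemt+/+ arrays, by a small margin that did not pass (log2 difference 0.41 ± 0.20, adjusted p = 0.188).

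Of the regulators of S phase entry, both E2F genes were higher and both cyclin E genes did not pass. E2f1, an activator, read 137, 195, 142 and 206 against 97.4, 137, 59.2 and 54.9, just without overlap. Its rise of 1.87-fold (adjusted p = 0.0379) did not pass without week 1, 3 or 4 (adjusted p = 0.0602, 0.131 and 0.150). A second E2f1 probe set, at 0.88, did not pass (adjusted p = 0.0504). E2f8, a repressor of the same targets, read 435, 316, 176 and 330.4 against 63.8, 176, 153 and 104, with an overlap at Pemt-/- week 3, and its rise of 2.38-fold (adjusted p = 0.0340) did not pass without week 1 or week 4 (adjusted p = 0.104 and 0.111). Ccne2 read 177, 131, 147 and 205 against 71.6, 179.8, 87.0 and 91.2. Pemt+/+ exceeded Pemt-/- at week 2, and the difference of 0.61 ± 0.27 (adjusted p = 0.165) passed without that week (0.95, adjusted p = 0.0211). Ccne1 read 153, 93.2, 89.3 and 156 against 193, 169, 78.1 and 159 and overlapped (log2 difference -0.23 ± 0.21, adjusted p = 0.489), while its other probe set lay at 0.50 (adjusted p = 0.138).

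Brca1, which protects stalled forks and repairs breaks, read 229, 176, 163 and 237 against 85.2, 59.0, 79.4 and 95.9. The ranges were far apart in every week, with ratios from 2.05 to 2.98, and the rise was 2.26-fold (log2 difference 1.18 ± 0.18, adjusted p = 0.00410). Another Brca1 probe set tested did not pass, at -0.10 (adjusted p = 0.801). In all, 19 genes had more than 1 probe set tested: 7 passed in all of them, 9 in some and 3 in none.

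Within single weeks, with 1 array per genotype and hence no test, 17 of the 34 genes were at a ratio of 2 or more at week 1, 4 at week 2, 13 at week 3 and 17 at week 4. Over all genes tested the shares were 7.58%, 6.21%, 10.9% and 10.6%. The 4 genes at such a ratio in all 4 weeks were Cdt1, Mcm3, Gins2 and Brca1, where 2.13% of all genes were. The ratios are of intensities with nothing added, and Gins2 and Pole passed the filter through Pemt-/- alone. The Pemt+/+ values of Gins2 in all 4 weeks, and of Pole at weeks 1 and 3, lay under the filter's limit of 45.53. The median log2 difference of the 34 genes was 0.95 at week 1, 0.47 at week 2, 0.57 at week 3 and 0.88 at week 4. These are single pairs of arrays, and their order over the weeks was not tested.

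The Pemt+/+ array of week 2 stood apart for this list. It was the highest of the 4 Pemt+/+ arrays for 25 of the 34 genes, against 25.8% of all genes, and at the median its intensity was 1.36 times the mean of the other 3. For the MCM subunits it was highest in 6 of 6, at a median of 1.84 times the others, and for Mcm5 at 3.56 times. The same array also had the highest Pemt+/+ sum of macrophage (14490), stellate cell (18834), hepatocyte (372745), cholangiocyte (669) and erythroid (2328) markers. The Pemt+/+ sums of lymphocyte and sinusoidal endothelial markers were highest on other arrays. The Pemt-/- array of week 3 was the lowest of its genotype for 23 of the 34 genes, against 15.7% of all genes, including 6 of 6 MCM subunits and Pcna. Without week 2 the median difference of the list was 0.82 and 19 genes were called higher. The part of cell types in this pattern was not tested.

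**Figure D3:**
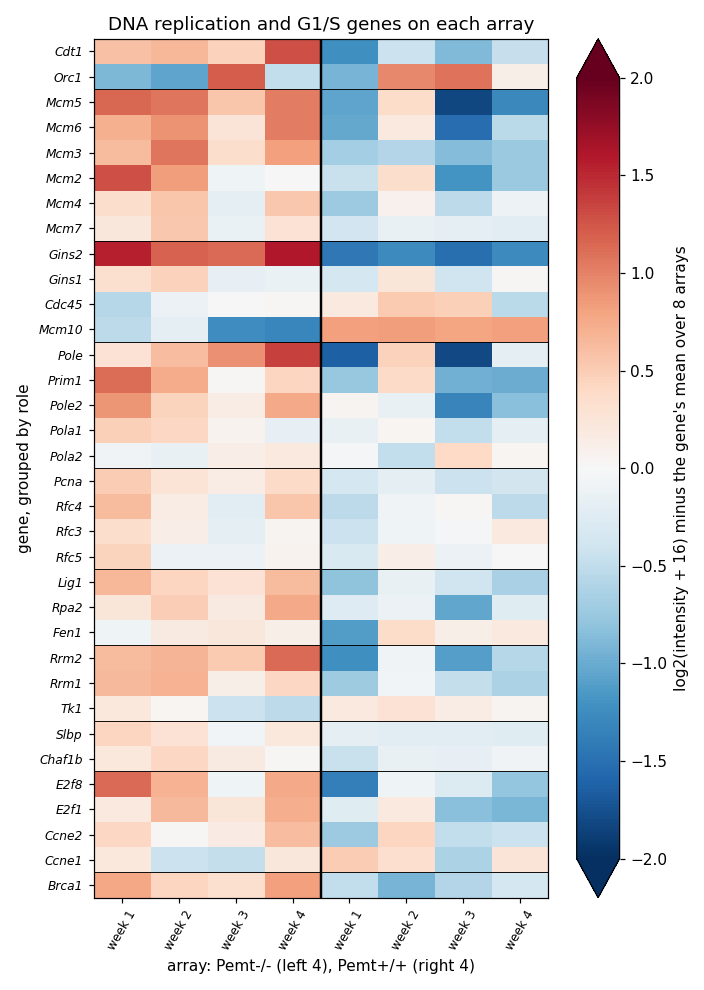
Heat map of log2(intensity + 16) of the 34 genes tested on the 8 arrays, each gene relative to its own mean, with genes in rows grouped by role and arrays in columns. The Pemt-/- arrays (left) are mostly above the mean and the Pemt+/+ arrays (right) below, the Pemt+/+ array of week 2 is the palest of its genotype, and Mcm10 runs the other way.

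Whether the genotype difference grew or shrank over the diet was asked with the change per week in each genotype. None of the 34 genes passed the test of the difference in change per week (limma; smallest adjusted p = 0.709), 2 were at an unadjusted p under 0.05, and over all genes 7.53% were. Those 2 were Rfc3 and Mcm10. Rfc3 changed by -0.12 per week in Pemt-/- and by 0.19 in Pemt+/+ on the log2 scale, a difference of -0.32 ± 0.13 (SE; unadjusted p = 0.0343, adjusted p = 0.709, limma). Mcm10 changed by -0.34 and -0.01, a difference of -0.33 ± 0.14 (unadjusted p = 0.0413, adjusted p = 0.719, limma). E2f1 and Cdc45 came next, with differences of 0.42 ± 0.21 and 0.41 ± 0.21 (adjusted p = 0.782 and 0.788). With 4 weeks and 1 array each, changes of this size could not be told from the spread.

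Other genes of the same processes, listed apart and also with earlier results of these data known, were counted in the same fit. Of 31 other replication genes tested, 4 were higher, with a median of 0.19, and this share of 12.9% lay near the 12.6% of all genes. The 4 were Dbf4, the activator of the origin kinase Cdc7 (1.46 ± 0.18, adjusted p = 0.00184), the clamp loader subunit Rfc2 (0.57, adjusted p = 0.00927), the checkpoint adaptor Clspn (1.19, adjusted p = 0.0213) and Gmnn, the inhibitor of Cdt1 (0.46, adjusted p = 0.0416). The other subunits of the origin recognition complex measured, Orc2 to Orc6, did not pass, with differences from -0.28 to 0.52. Gins3 (-0.56, adjusted p = 0.250) and Gins4 (-0.11, adjusted p = 0.619) did not pass either, beside the rise of Gins2.

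Of 10 other nucleotide supply genes 3 were higher, where 12.6% of all genes were. The 3 were Dck, the kinase that salvages deoxycytidine (1.04 ± 0.13, adjusted p = 0.00202), Cmpk1 (0.48, adjusted p = 0.00591) and the dUTPase Dut (0.58, adjusted p = 0.02002). Of 21 other G1/S regulators 5 were higher and 1 lower, where 12.6% and 7.51% of all genes were. Ccna2, the cyclin of S phase and G2, read 768, 656, 1002 and 1249 against 126, 237, 75.4 and 113 and was 6.32-fold higher (adjusted p = 0.00142). Rbl1, the pocket protein p107 that holds E2F back, read 544, 403, 376 and 614 against 116, 242, 84.2 and 138 (3.24-fold, adjusted p = 0.00281). Ccnd1 (2.06, adjusted p = 0.000486) and Myc (1.89, adjusted p = 0.00378) also passed, as did Cdk4 (0.44, adjusted p = 0.0497) and, in the other direction, the E2F partner Tfdp2 (-0.66, adjusted p = 0.0311), the last 2 named after their values were seen. The G1 kinases Cdk2 (-0.13, adjusted p = 0.532) and Cdk6 (0.51, adjusted p = 0.0597) did not pass.

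Of 6 inhibitors of the cyclin-dependent kinases tested, 3 were higher, where 12.6% of all genes were. The 3 were Cdkn2c (0.98, adjusted p = 0.00235), Cdkn2d (0.75, adjusted p = 0.0109) and Cdkn1a (1.83, adjusted p = 0.0156). Of 17 other S phase chromatin and repair genes 7 were higher, with a median of 0.35, where 12.6% of all genes were higher. Hells and Rad51ap1 passed the filter through Pemt-/- alone and 1 gene through Pemt+/+ alone. Of the 14 genes above the filter in both genotypes 5 were higher, with a median of 0.34, where 12.4% of all such genes were higher. The helicase gene Hells read 290.3, 298, 145 and 259 against 45.5, 54.7, 22.0 and 68.8 (2.06 ± 0.20, adjusted p = 0.000801), and Uhrf1, which carries DNA methylation through replication, read 236, 299, 180.4 and 237 against 48.9, 117, 42.3 and 16.3 (1.98 ± 0.28, adjusted p = 0.00286). In both, every Pemt-/- array was above every Pemt+/+ array, and Hells passed the filter through Pemt-/- alone. Atad2 (1.41, adjusted p = 0.00262) and the maintenance methyltransferase Dnmt1 (0.58, adjusted p = 0.0111) rose as well.

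Of the mitosis genes, 23 of 24 tested were higher, where 12.6% of all genes were. Their median difference was 2.50 beside 0.65 for the replication genes. Of these 24 genes 6 passed the filter through Pemt-/- alone. Of the other 18 genes 17 were higher, with a median of 2.46, where 12.4% of all genes above the filter in both genotypes were higher. The difference between the lists was not tested. Examples are Cdk1 (2.55) and Top2a (2.65) and, among the 6 that passed the filter through Pemt-/- alone, Plk1 (3.11) and Ect2 (3.21). The gene that did not pass was Foxm1, named after its values were seen (-0.63, adjusted p = 0.271). At the median gene, relative to its mean, the Pemt-/- arrays lay at 0.93, 0.82, 1.30 and 1.94 for mitosis genes at weeks 1, 2, 3 and 4, and at 0.44, 0.44, 0.14 and 0.42 for replication genes. The Pemt+/+ array of week 2 was the highest of its genotype in both lists, at -0.60 and -0.01. The plot of the lists sets these differences side by side.

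**Figure D4:**
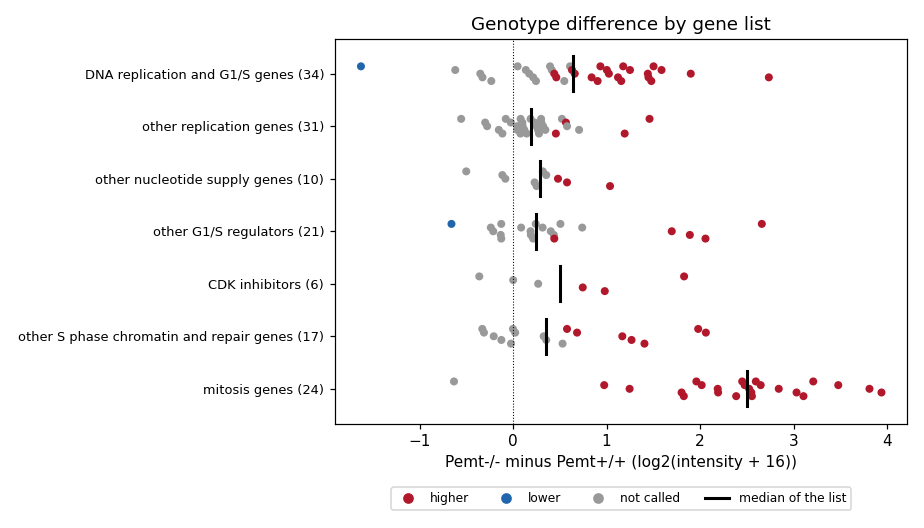
Difference in log2(intensity + 16) between Pemt-/- and Pemt+/+ for each gene tested, by list, with the number of genes tested after each name. Points are genes coloured by their call and black bars are medians, which lie at 0.65 for the DNA replication and G1/S genes, from 0.19 to 0.51 for the 5 related lists and at 2.50 for mitosis genes.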

How the data were processed

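The deposited intensity values of the 8 arrays are on a linear scale and had been scaled by the authors, since the 2% trimmed mean of all probe sets was 500.0 on every array. Affymetrix Expression Console is the tool in the submitters' processing notes, with its version and summary method not given in the sources used here. Array medians lay between 73.8 and 81.3, no detection calls were used, and the number of arrays limits the precision.

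Without 64 control probe sets, 45037 probe sets were left. The platform annotation paired 34945 with 1 gene and 932 with several, and 9160 were unnamed here; 34741 of the named matched RefSeq (GRCm38.p6). Values were taken as log2(intensity + 16), and 27022 probe sets with a mean above the 40th percentile were tested with limma 3.58.1 in R 4.3.3 (lmFit, then eBayes with an intensity trend), with week as a factor and genotype. Benjamini-Hochberg adjustment ran over all of them, with a threshold of 0.05. The change per week was fitted with week as a number within each genotype. The replicate number of a sample is its week, so the block pairs arrays by week of diet and not by animal. A gene counts by its probe set of highest mean. Values on every array are given for up to 3 members per role with the smallest p. They are also given for members that did not pass or had a probe set running the other way, and for the 4 smallest p of the difference in change per week. Of the other lists, up to 4 genes each with the smallest p were to be named. Orc2 to Orc6, Gins3, Gins4, Cdk2, Cdk4, Cdk6, Tfdp2 and Foxm1 were named outside this rule. Printed promoters follow the rule of at most 5 members with a motif, kept to bases before the start and outside annotated genes. The fits were tested on simulated data, with known changes put into 200 of 27022 probe sets. Genotype differences of 1 on the log2 scale were called in 38% of cases, and those of 2 in 78%. Differences in change per week of 0.5 were called in 0% and those of 1 in 36%. A gene that did not pass may therefore still differ by such an amount. Alternatives were other filters, normalizations and pseudocounts, no trend, the mean of probe sets, no week in the model, each week left out and, chosen after seeing the data, no probe sets of the suffixes _x_at or _s_at, which can bind transcripts of other genes. The members and lists were chosen with earlier results of these data known.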

Additional observations from a re-analysis of the deposited data

Results flagged for a closer look

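Of the 68 groups of 4 arrays examined (34 genes in each genotype), 3 held an array far from the other 3 for its gap over the range of the group, and chance alone gives about 1 in 20. Prim1 in Pemt+/+ had its week 2 array apart, at a gap of 0.830 of the range. Rpa2 in Pemt+/+ had its week 3 array apart, below the others, at 0.848 of the range. Fen1 in Pemt+/+ had its week 1 array apart, also below, at 0.832 of the range. Each array is of another week, so a change over the diet and a stray array cannot be told apart.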

How the results depend on the processing

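The direction of all 21 called genes was the same under the 14 alternatives, and 12 of them passed the test under each alternative that could be run for them, while 9 lost the call under at least 1. The count of genes higher was 20 of 34, where 12.6% of all genes were. It was 11 of 27 with the mean of the probe sets of each gene (11.3% of all genes) and 14 without the intensity trend (7.71%). It ran from 13 to 19 when a week was left out, while the share of all genes ran from 6.36% to 13.3%. Without the replicate block, that is with no week in the model, 18 genes were higher, where 13.1% of all genes were. The calls of Mcm2 (adjusted p = 0.0703) and Mcm4 (adjusted p = 0.0618) were lost in that fit. The median difference of the list ran from 0.54 to 0.82 over the alternatives. Of the 13 genes not called, 5 turned sign: Pola2 was -0.074 with quantile normalization and ran from -0.053 to 0.155 when a week was left out, Rfc3 from -0.034 to 0.290, Rfc5 from -0.066 to 0.266 and Fen1 from -0.058 to 0.353, and Ccne1 was 0.13 with the mean of its probe sets. Ccne2 passed without week 2 and Fen1 without the _x_at and _s_at probe sets (0.84, adjusted p = 0.0188). Counted by probe set in place of gene, ratios of 2 or more were in 33, 8, 23 and 27 of 59 probe sets at weeks 1, 2, 3 and 4, against 7.56%, 6.50%, 9.79% and 10.2% of all probe sets tested. No gene passed the difference in change per week under any alternative run, by limma, with 0 to 3 genes at an unadjusted p under 0.05. The changes have no repeat array within a week, and dim probe sets limit what could be seen for Cdc6, Tyms and Orc1. The causes of these shifts were not tested.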
